A study of Mus musculus with 17 samples.

Results

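The receptors of WNT ligands were followed in erythroid blasts of Spi1 transgenic mice: the LRP5/6 co-receptors (Lrp5 and Lrp6) and the Frizzled genes Fzd1 to Fzd8, 10 genes in all. They were chosen by name as a family, with measured values of these libraries known, among them the comparison of leukaemic with preleukaemic TgSpi1FA-/- blasts of model 1. Values of that comparison are therefore given here as a description. Of the 10 genes, 9 had a row among the 26029 genes counted in model 1 and 8 among the 24659 genes of model 2, and Fzd1 in both models and Fzd6 in model 2 were not analysed here. Fzd1 could only be read in a further count table of 7 of the mice.

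All mice carried a constitutively expressed Spi1 transgene (TgSpi1), which encodes the transcription factor SPI1/PU.1. In model 1 (strain DBA2JxFVB/N), blasts came from 4 TgSpi1FA+/+ preleukaemic mice with an intact Fanca gene (TgSpi1Fanca.wt; preleukemic_138, preleukemic_445, preleukemic_451 and preleukemic_479), 3 TgSpi1FA-/- preleukaemic mice (TgSpi1Fanca.ko; preleukemic_40, preleukemic_77 and preleukemic_224) and 3 TgSpi1FA-/- leukaemic mice (leukemic_26, leukemic_28 and leukemic_39). Fanca, a gene of the Fanconi anaemia DNA repair pathway, is deleted in the TgSpi1FA-/- mice. In model 2 (strain DBA2J), all mice were TgSpi1FA+/+, 4 preleukaemic (preleukemic_633, preleukemic_663, preleukemic_812 and preleukemic_837) and 3 leukaemic (leukemic_601, leukemic_606 and leukemic_921), and the leukaemic cells had arisen over serial transfusions of blood. Preleukaemic blasts need erythropoietin (EPO) to grow and leukaemic blasts do not, but all blasts were cultured with EPO before RNA extraction, with 1 poly(A) library per mouse. Each mouse is named by the end of its sample title, such as preleukemic_445. Ages were not given in the sources used here. Model 1 and model 2 differ in strain and in library preparation (400 ng of RNA and 8 min of fragmentation against 300 ng and 2 min), so their levels were not compared by a test. The column names and source names of preleukemic_40, preleukemic_77 and preleukemic_224 say leukaemic, whereas their titles and cell type labels say preleukaemic, and the latter was used.

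WNT ligands bind a Frizzled receptor, a protein with an extracellular cysteine-rich domain that spans the membrane repeatedly, together with LRP5 or LRP6, single-pass co-receptors of the LDL receptor family. In the canonical pathway the complex recruits Dishevelled and Axin, the destruction complex stops degrading beta-catenin, and beta-catenin activates genes together with TCF/LEF factors. Frizzleds without LRP5/6 can also signal through other routes, such as planar cell polarity. WNT signals are known to act on haematopoietic stem and progenitor cells and in several leukaemias.

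Total counts ranged from 29964576 to 38217654 per library in model 1 and from 37726753 to 40514205 in model 2. Fanca lay between 0.615 and 2.3 CPM (counts scaled to library size with edgeR) in the TgSpi1FA-/- libraries and between 28.1 and 83.5 CPM in all the others. All 10 erythroid markers examined were detected, with a summed level between 2214 and 5197 CPM. The libraries preleukemic_445 and preleukemic_479 were nearly alike: the chi-square per degree of freedom between their counts was 8.53, against 114 to 372 for the other pairs within groups of model 1. In the further count table this pair was the closest by a small margin only, at 350 against 393 to 742 for the other pairs. The near likeness was thus seen in the first table alone. Spi1, the gene of the transgene, was at 467 to 1061 CPM in the preleukaemic libraries of model 1 and at 103 to 332 CPM in model 2. In the leukaemic libraries of model 1 it was at 630 CPM in leukemic_26, 220 CPM in leukemic_28 and 3.88 CPM in leukemic_39, and at 4.67 CPM in leukemic_39 in the further table. The library leukemic_39 thus had far less Spi1 RNA than every other library, although all mice carried the transgene. The cause was not tested, and the calls by stage in model 1 are given with and without leukemic_39. Calls of members by genotype are given with preleukemic_445 and preleukemic_479 separate and summed. Levels are CPM of the library size scaled by the TMM method, and levels of different genes were compared only as CPM per kb of exon. A group's value is the mean ± SD over mice, and a count of 3 per library was taken as the floor of detection. Such floors, and the intervals of ratios given here, cover counting error only.

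Promoters of 3 members are shown because several receptors differed in level between stages. They were picked among the members with a sequence used here, which leaves out Lrp5 and Fzd2. RefSeq sequences of 300 bases (250 before and 50 after the RefSeq start, GRCm38.p6) were used for 4 of the 10 genes, namely Fzd1, Fzd4, Fzd5 and Fzd7. Gene positions in this text come from GENCODE, whose starts can differ. The Fzd7 and Fzd1 windows lay wholly before the GENCODE starts of these genes, at 59482424 and 4758035. The promoters of the other members were not analysed here. Those of Fzd4 and Fzd5, low in TgSpi1FA-/- preleukaemic blasts and higher in leukaemic blasts, are printed with that of Fzd7, the highest Frizzled in all 5 groups. Each reads 5' to 3' on the strand of its gene, and capitals mark every match to 1 of 5 motifs searched on both strands. The core of sites bound by TCF/LEF proteins was searched as CTTTGA. The site of GATA factors, which drive erythroid genes, was searched as AGATAA. The site of ETS factors was searched as GGAAGT. The E-box, bound by MYC and other helix-loop-helix proteins, was searched as CACGTG. The GC box, bound by SP1 and its relatives, was searched as GGGCGG. Adjoining capitals are overlapping or neighbouring matches.
Fzd4 (chr7:89404116-89404415, plus strand): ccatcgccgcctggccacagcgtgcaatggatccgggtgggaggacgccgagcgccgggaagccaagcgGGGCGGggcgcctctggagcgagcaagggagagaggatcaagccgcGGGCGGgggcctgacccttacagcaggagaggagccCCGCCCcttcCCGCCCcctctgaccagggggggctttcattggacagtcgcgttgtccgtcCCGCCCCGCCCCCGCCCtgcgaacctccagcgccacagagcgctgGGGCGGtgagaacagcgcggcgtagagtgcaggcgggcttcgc
Fzd5 (chr1:64737701-64738000, minus strand): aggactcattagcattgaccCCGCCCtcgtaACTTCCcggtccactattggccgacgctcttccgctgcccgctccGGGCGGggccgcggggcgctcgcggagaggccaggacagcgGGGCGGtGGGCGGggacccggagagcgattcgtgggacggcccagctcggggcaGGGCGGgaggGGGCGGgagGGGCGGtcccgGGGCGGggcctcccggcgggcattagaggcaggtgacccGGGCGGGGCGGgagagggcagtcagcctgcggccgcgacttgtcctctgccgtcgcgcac
Fzd7 (chr1:59481897-59482196, plus strand): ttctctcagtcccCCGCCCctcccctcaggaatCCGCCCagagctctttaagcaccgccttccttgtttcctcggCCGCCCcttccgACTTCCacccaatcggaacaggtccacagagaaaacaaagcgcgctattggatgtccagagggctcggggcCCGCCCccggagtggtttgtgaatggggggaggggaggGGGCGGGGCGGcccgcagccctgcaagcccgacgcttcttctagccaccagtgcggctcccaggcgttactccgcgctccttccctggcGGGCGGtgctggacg
The Fzd4, Fzd5 and Fzd7 windows held 8, 10 and 7 GC boxes, and a GC box occurred in 35.7% of the 32851 promoters of the same length. Their GC content was 72.7%, 75.7% and 66.7%, with 32, 38 and 24 CpG dinucleotides, against a median of 52.7% and 7 over all promoters. Fzd5 and Fzd7 each held 1 ETS match, a motif present in 23.8% of promoters and the family to which SPI1 belongs. None of these 3 windows held the TCF/LEF core or the GATA motif, present in 16.0% and 11.2% of promoters. The Fzd1 window held 1 TCF/LEF core, 2 GATA matches, 1 ETS match and no GC box.

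Among the co-receptors, Lrp5 was nearly absent from the preleukaemic blasts of model 1 and readily counted in its leukaemic blasts, whereas Lrp6 was high in every library. Lrp5 (GRCm38, chr19:3584828-3686564, minus strand) was counted 0, 1 and 4 times in the TgSpi1FA-/- mice preleukemic_77, preleukemic_224 and preleukemic_40, and 783, 1232 and 2007 times in the mice leukemic_26, leukemic_28 and leukemic_39. In TgSpi1FA+/+ preleukaemic mice it was counted once in each of preleukemic_138, preleukemic_445 and preleukemic_479 and 19 times in preleukemic_451. All 3 leukaemic libraries lay above all 7 preleukaemic libraries. The level was 34.6 ± 15.0 CPM (n = 3) in leukaemic and 0.0529 ± 0.0679 CPM (n = 3) in preleukaemic TgSpi1FA-/- blasts, a log2 fold change of 9.27 ± 1.58 (SE). Since the lower group held 5 counts in all, the ratio of summed counts, 668-fold, had a 95% exact counting interval from 286 to 2059.

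Lrp6 (chr6:134446476-134566965, minus strand), the co-receptor that many cells use for canonical signalling, was at 99.0, 159 and 152 CPM in the TgSpi1FA-/- mice preleukemic_77, preleukemic_224 and preleukemic_40 and at 93.9, 97.7 and 133 CPM in the mice leukemic_26, leukemic_28 and leukemic_39. The groups overlapped, and the log2 fold change was -0.34 ± 0.23 (SE). Per kb of exon, the share of Lrp5 in the sum of Lrp5 and Lrp6 was 0 to 0.119% in TgSpi1FA-/- preleukaemic blasts of model 1 and 0.0315 to 0.576% in TgSpi1FA+/+ blasts of that stage. In leukaemic blasts of model 1 it was 24.3 to 35.0%. The sum itself was 10.0 ± 2.4 CPM per kb (n = 3) in TgSpi1FA-/- preleukaemic and 11.5 ± 3.09 CPM per kb (n = 3) in leukaemic blasts.

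**Figure D1:**
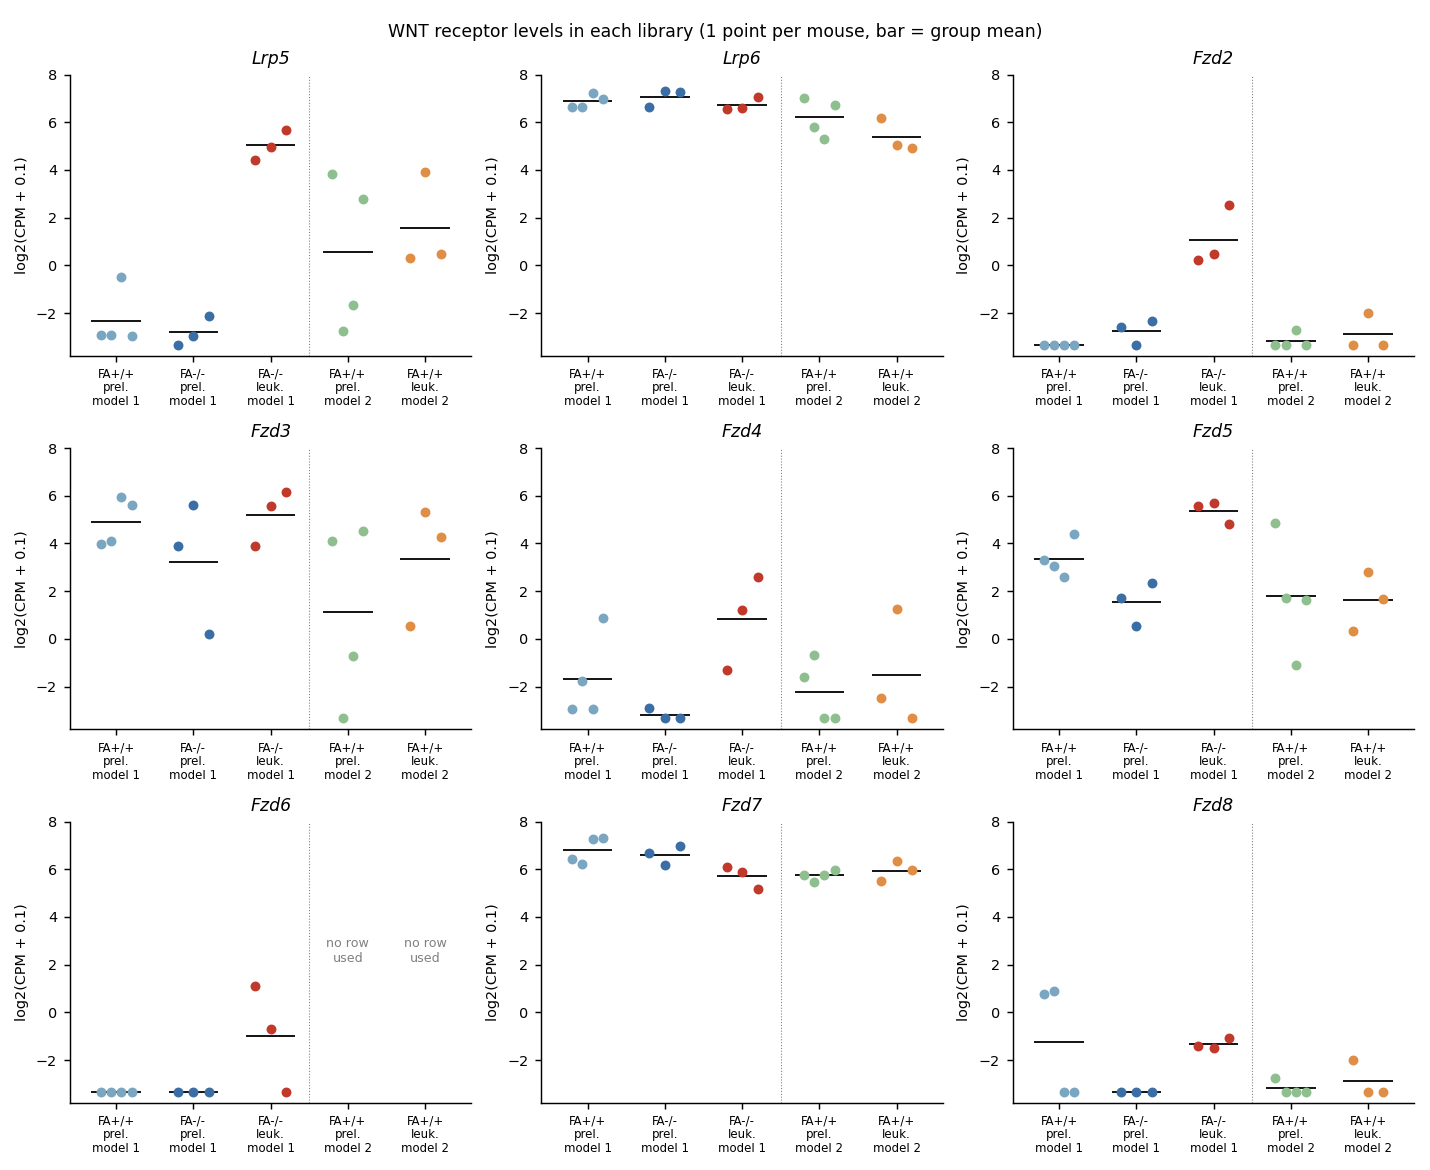
Level of 9 WNT receptor genes in each library, as log2(CPM + 0.1), by genotype (FA+/+ or FA-/-), stage (prel., preleukaemic; leuk., leukaemic) and model, with 1 point per mouse and a bar at the mean of the log2 values. In model 1 the 3 leukaemic points lie above all 7 preleukaemic points for Lrp5, Fzd2 and Fzd5, while in model 2 the points of both stages overlap for each of the 8 genes shown. The members were chosen with values of model 1 known, and the share of all genes set apart in this way is not given here, so nothing is read from the number.

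Fzd7 (chr1:59482424-59486955, plus strand), a receptor known from stem cells, had the highest level per kb of the members in each of the 5 groups. It was at 103, 72.2 and 127 CPM in the TgSpi1FA-/- mice preleukemic_77, preleukemic_224 and preleukemic_40 and at 68.2, 59.0 and 36.1 CPM in the mice leukemic_26, leukemic_28 and leukemic_39. All leukaemic libraries lay below all preleukaemic ones, with a log2 fold change of -0.89 ± 0.36 (SE) that was not called. In TgSpi1FA-/- preleukaemic blasts the order per kb was Fzd7 (22.2 ± 6.07 CPM per kb), Lrp6 (10.0 ± 2.4), Fzd3 (1.66 ± 1.9) and Fzd5 (0.461 ± 0.261), with Fzd3 and Fzd5 overlapping and the others apart. In leukaemic blasts it was Fzd7 (12.0 ± 3.65), Lrp6 (7.91 ± 1.57), Fzd5 (6.12 ± 1.85), Lrp5 (3.56 ± 1.54) and Fzd3 (3.46 ± 2.2), each overlapping the next.

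Fzd5 (chr1:64730558-64737751, minus strand) separated the 3 groups of model 1. It was at 3.22, 1.37 and 4.98 CPM in the TgSpi1FA-/- mice preleukemic_77, preleukemic_224 and preleukemic_40, at 9.67, 8.28, 5.9 and 21.0 CPM in the TgSpi1FA+/+ mice preleukemic_445, preleukemic_479, preleukemic_451 and preleukemic_138, and at 47.8, 51.4 and 27.7 CPM in the mice leukemic_26, leukemic_28 and leukemic_39. No library of one group reached the range of another. The log2 fold change from preleukaemic to leukaemic TgSpi1FA-/- blasts was 3.73 ± 0.62 (SE). A transcript of unknown coding potential, Gm38058, overlaps 1233 bases of Fzd5 exons on the opposite strand but had at most 19 counts in a library of model 1.

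Fzd2 and Fzd4 were low members. Fzd2 (chr11:102604396-102608058, plus strand), a receptor linked to WNT5A, was counted 2, 0 and 3 times in preleukemic_77, preleukemic_224 and preleukemic_40, 0 times in each TgSpi1FA+/+ preleukaemic mouse, and 39, 50 and 223 times in leukemic_26, leukemic_28 and leukemic_39. The ratio of summed counts in TgSpi1FA-/- blasts was 51.8-fold with a counting interval from 22.0 to 161, and the fitted log2 fold change was 5.55 ± 1.24 (SE). Fzd4 (chr7:89404355-89413134, plus strand), the receptor of Norrin in blood vessels, was counted 1, 0 and 0 times in preleukemic_77, preleukemic_224 and preleukemic_40 and 11, 87 and 235 times in leukemic_26, leukemic_28 and leukemic_39. With 1 count in the lower group the ratio, 277-fold, had an interval from 49.3 to 10960. In the TgSpi1FA+/+ mouse preleukemic_138 Fzd4 was counted 61 times, above the 11 counts of the mouse leukemic_26.

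Fzd3 (chr14:65192449-65262463, minus strand), a receptor of planar cell polarity and axon guidance, varied widely between mice of the same group. It was at 14.6, 48.2 and 1.07 CPM in preleukemic_77, preleukemic_224 and preleukemic_40 and at 14.5, 48.1 and 70.4 CPM in leukemic_26, leukemic_28 and leukemic_39, with a log2 fold change of 1.06 ± 1.08 (SE). Fzd6 (chr15:39006034-39038188, plus strand), also of the planar cell polarity group, was counted 74 and 20 times in the mice leukemic_26 and leukemic_28 and was at 0 in leukemic_39 and in all 7 preleukaemic libraries of model 1. Its leukaemic mean was at least 8.96-fold higher than 3 counts per preleukaemic TgSpi1FA-/- library, but the groups overlapped at 0. Fzd8, on chromosome 18, was counted 10, 10 and 15 times in leukemic_26, leukemic_28 and leukemic_39 and was at 0 in preleukemic_77, preleukemic_224 and preleukemic_40, at least 3.21-fold higher. It was also counted 51 and 56 times in preleukemic_445 and preleukemic_479, the nearly alike TgSpi1FA+/+ libraries, and was at 0 in preleukemic_451 and preleukemic_138.

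Of the 8 members that passed the filter on low counts, Lrp5, Fzd2, Fzd4 and Fzd5 were called higher in TgSpi1FA-/- leukaemic than preleukaemic blasts (edgeR, with a Benjamini-Hochberg adjusted p below 0.05 and at least a 1.5-fold difference). In this comparison 13.3% of the 13393 genes tested were called, those called higher were 6.82% of the genes tested, and the groups of 38.7% of genes did not overlap, against 6 of the 8 members. As the family was chosen with this comparison known, nothing is read from these shares. The 4 calls were also made without leukemic_26, where 2319 of 14031 genes were called. Without leukemic_39, the library low in Spi1, Lrp5 (log2 fold change 8.9) and Fzd5 (3.98) were called and Fzd2 (4.39) and Fzd4 (6.48) were not. Without leukemic_28, preleukemic_40 or preleukemic_77 in turn, 2 members were called (Lrp5 and Fzd5), and without preleukemic_224 1 was (Fzd5). Calls over all genes fell as well, from 1782 of 13393 to 711 of 13778 without leukemic_39. They were 414 without leukemic_28, 833 without preleukemic_40, 822 without preleukemic_77 and 418 without preleukemic_224. The lost calls are therefore not read as particular to the members or to the mouse left out. With the counts of preleukemic_445 and preleukemic_479 summed to 1 library, 3 of 7 members tested were called and Fzd4 was not. Calls over all genes fell there to 1242 of 13344, so this loss is not read as particular to Fzd4.

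Marker sums of other cells did not all move in the same direction. The fibroblast sum was 0.939 to 16.6 CPM in leukaemic and 9.8 to 276 CPM in preleukaemic TgSpi1FA-/- libraries. Nearly all of the preleukaemic sum came from Col1a2, at 9.77 to 273 CPM. Every other fibroblast marker with a row was at most 2.1 CPM in these libraries. In leukaemic libraries Col1a2 was at 0.152 to 5.57 CPM and Thy1 at 0 to 14.9 CPM. For mast cells and basophils the sum was 0.406 to 11.1 CPM in leukaemic and 1.97 to 31.6 CPM in preleukaemic libraries. The fibroblast sum and this sum both overlapped between stages. The summed level of 5 endothelial markers with a row (of 6 listed) was 13.4 to 51.7 CPM in TgSpi1FA-/- leukaemic and 1.75 to 8.44 CPM in TgSpi1FA-/- preleukaemic libraries. Most of the leukaemic sum came from Kdr at 7.32 to 34.6 CPM and Tek at 0.102 to 21.4 CPM. In TgSpi1FA-/- preleukaemic libraries Kdr was at 0.324 to 0.643 CPM and Tek at 0.877 to 7.55 CPM, so Kdr was apart and Tek was not. Pecam1 was also apart, at 0.274 to 1.53 CPM in leukaemic and 0 to 0.032 CPM in these preleukaemic libraries. So was Vwf, at 1.1 to 3.1 against 0.129 to 0.46 CPM. In TgSpi1FA+/+ preleukaemic libraries of model 1, Pecam1 reached 0.286 CPM and Vwf 4.09 CPM, so both overlapped the leukaemic range there. Cdh5, a defining endothelial cadherin, was at 0 in the preleukaemic libraries of model 1 and at 0.178 to 0.521 CPM in the leukaemic ones. The summed level of 4 megakaryocyte markers was at least 166 CPM against at most 39.9 CPM, and most of it came from Itga2b, at 92.8 to 243 CPM in leukaemic blasts. Pf4, a platelet chemokine, was at 0.837 to 69.9 CPM with a median of 5.55 CPM in leukaemic and at 9.19 to 23.0 CPM in preleukaemic TgSpi1FA-/- libraries, so the list did not move as one. The erythroid sum was 2214 to 4085 CPM in leukaemic and 3482 to 4771 CPM in preleukaemic TgSpi1FA-/- libraries, and its largest part was Tfrc, the transferrin receptor. The globin gene Hbb-bt was at 0.102 to 7.62 CPM in leukaemic and 97.7 to 388 CPM in preleukaemic TgSpi1FA-/- libraries, and the erythroid factor Klf1 at 99.2 to 158 and 292 to 351 CPM. The part of these cells in the levels of Fzd4 and of the other members was not tested. In such bulk samples, fewer cells of a type and less RNA per cell cannot be told apart.

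**Figure D2:**
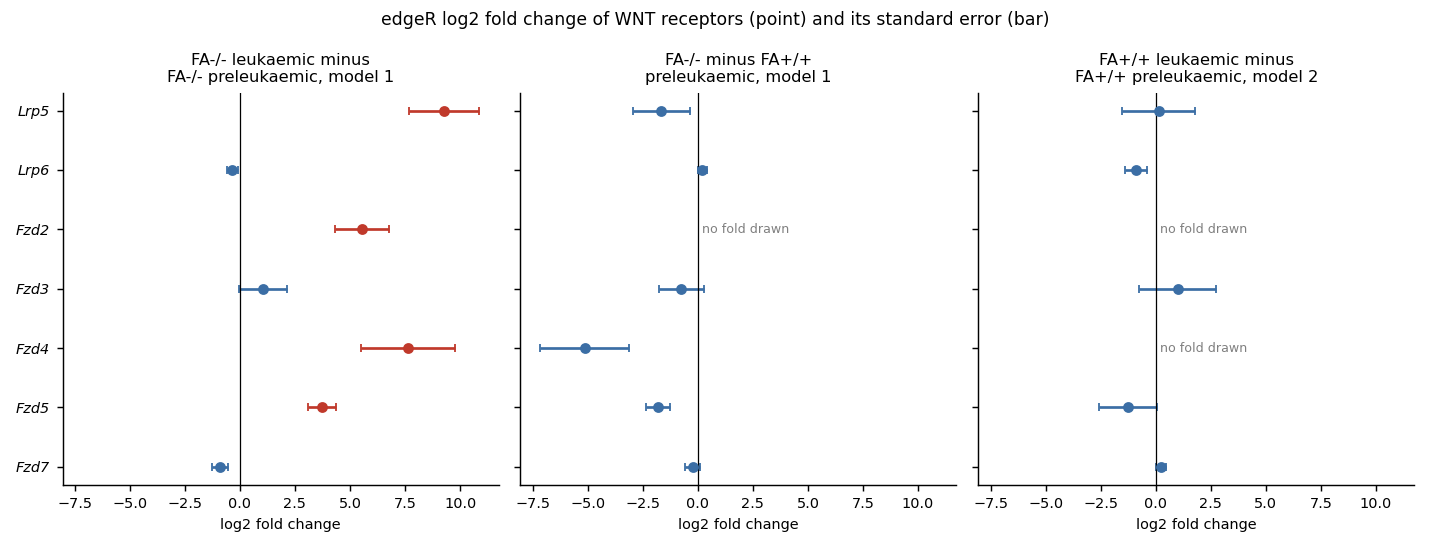
edgeR log2 fold change (point) and SE (bar) of 7 members in the 3 comparisons, in red where called; no value is drawn where a gene was not tested or had no count in 1 group, and Fzd6 and Fzd8 are left out for that reason. In the comparison of stages Lrp5 stood at 9.27 in model 1 and at 0.14 in model 2.

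The effect of the Fanca deletion before leukaemia was examined by comparing preleukaemic TgSpi1FA-/- with TgSpi1FA+/+ blasts of model 1. This comparison shares the TgSpi1FA-/- preleukaemic mice with the previous one. None of the 8 members tested was called by edgeR, where 0.00747% of all genes (1 gene) were. DESeq2 called 1 member, Fzd5, and 250 genes. With preleukemic_445 and preleukemic_479 summed to 1 library, none of 7 members tested was called, with adjusted p from 0.878 to 0.993 in edgeR, and Fzd8 was not tested. An unadjusted p under 0.05 was reached by Fzd2, Fzd4, Fzd5 and Fzd8 and by 8.65% of all genes, and nothing is read from the number of members. Of these, Fzd2 had at most 3 counts in each library compared, Fzd4 rested on preleukemic_138 and Fzd8 on preleukemic_445 and preleukemic_479. Fzd5 was lower in TgSpi1FA-/- (3.19 ± 1.8 CPM, n = 3) than in TgSpi1FA+/+ blasts (11.2 ± 6.69 CPM, n = 4) by -1.81 ± 0.55 (SE) on the log2 scale, with an adjusted p of 0.535 in edgeR. Its groups did not overlap, as for 8.53% of the genes, and the two-sided exact permutation p of 0.0571 is the smallest that 3 against 4 mice can give. With the mean of preleukemic_445 and preleukemic_479 as 1 replicate (11.9 ± 7.96 CPM, n = 3), the exact permutation p was 0.1, the smallest that 3 against 3 can give. Over 13 alternative settings the adjusted p ran from 0.0496 (DESeq2) to 0.911.

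Lrp6 was at 137 ± 32.8 CPM in TgSpi1FA-/- and 119 ± 22.7 CPM in TgSpi1FA+/+ preleukaemic blasts (adjusted p = 0.844, edgeR). Fzd7 was at 101 ± 27.5 and 118 ± 43.5 CPM (adjusted p = 0.897, edgeR), and Fzd3 at 21.3 ± 24.3 and 36.0 ± 23.1 CPM (adjusted p = 0.885, edgeR). Fzd4 had 1 count in the TgSpi1FA-/- group and 69 in the TgSpi1FA+/+ group, of which 61 came from preleukemic_138 (adjusted p = 0.547, edgeR). Fzd8 was at 0 in the TgSpi1FA-/- group and its TgSpi1FA+/+ counts came from preleukemic_445 and preleukemic_479 alone (adjusted p = 0.535, edgeR). Lrp5 had 5 counts against 22, of which 19 came from preleukemic_451 (adjusted p = 0.767, edgeR), and Fzd2 stood at or under 3 counts in every library. None of these differences passed the test.

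In model 2, the comparison of leukaemic with preleukaemic TgSpi1FA+/+ blasts asked whether receptors differ by stage where Fanca is intact. None of the 5 members tested (Lrp5, Lrp6, Fzd3, Fzd5 and Fzd7) was called by edgeR, where 0.0% of 12970 genes were, and none passed an unadjusted p under 0.05, against 19.9% of genes. DESeq2 called 470 genes and none of the members. Groups of the 5 members overlapped, while those of 20.1% of genes did not. Whether the change by stage differs between the models was not tested, because the members were chosen with the change in model 1 known.

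Lrp5 was already present in preleukaemic blasts of model 2. It was at 14.1, 0.05, 0.213 and 6.85 CPM in the mice preleukemic_633, preleukemic_663, preleukemic_812 and preleukemic_837 and at 1.15, 15.1 and 1.28 CPM in the mice leukemic_601, leukemic_606 and leukemic_921. One leukaemic and 1 preleukaemic mouse had nearly the same highest level, and the log2 fold change was 0.14 ± 1.66 (SE, adjusted p = 0.972, edgeR). Lrp6 was at 130, 56.0, 38.7 and 107 CPM in these preleukaemic mice and at 71.4, 33.2 and 30.3 CPM in the leukaemic mice, a change of -0.88 ± 0.49 (SE, adjusted p = 0.355, edgeR). Both groups overlapped. The Lrp5 share of the co-receptors was 0.125 to 13.2% before leukaemia and 2.22 to 38.9% in leukaemic blasts.

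Fzd5 was at 29.1 CPM in the mouse preleukemic_633 and at 3.2, 0.373 and 2.99 CPM in preleukemic_663, preleukemic_812 and preleukemic_837, against 1.15, 6.93 and 3.12 CPM in the mice leukemic_601, leukemic_606 and leukemic_921. The log2 fold change of -1.25 ± 1.31 (SE, adjusted p = 0.626, edgeR) became 0.77 without preleukemic_633. Fzd3 was at 16.9, 0, 0.507 and 22.7 CPM in the 4 preleukaemic mice and at 1.33, 39.8 and 19.2 CPM in the leukaemic mice (log2 fold change 1.0 ± 1.75, SE, adjusted p = 0.783, edgeR). Fzd7 varied least, at 53.8 ± 7.56 CPM (n = 4) in preleukaemic and 62.8 ± 17.5 CPM (n = 3) in leukaemic blasts (adjusted p = 0.631, edgeR).

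Fzd2, Fzd4 and Fzd8 were below the filter in model 2, and Fzd4 was above 3 counts in 3 of the 7 libraries. Fzd4 was counted 91 times in the mouse leukemic_606 and 3 and 0 times in leukemic_601 and leukemic_921, against 9, 21, 0 and 0 counts in the preleukaemic mice. Fzd2 had at most 6 counts and Fzd8 at most 6 counts in any library. Mouse leukemic_606 had the highest Lrp5, Fzd3, Fzd4, Fzd5 and Fzd7 of its group, and also the highest Fzd9, a Frizzled outside the set, at 5.81 CPM.

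**Figure D3:**
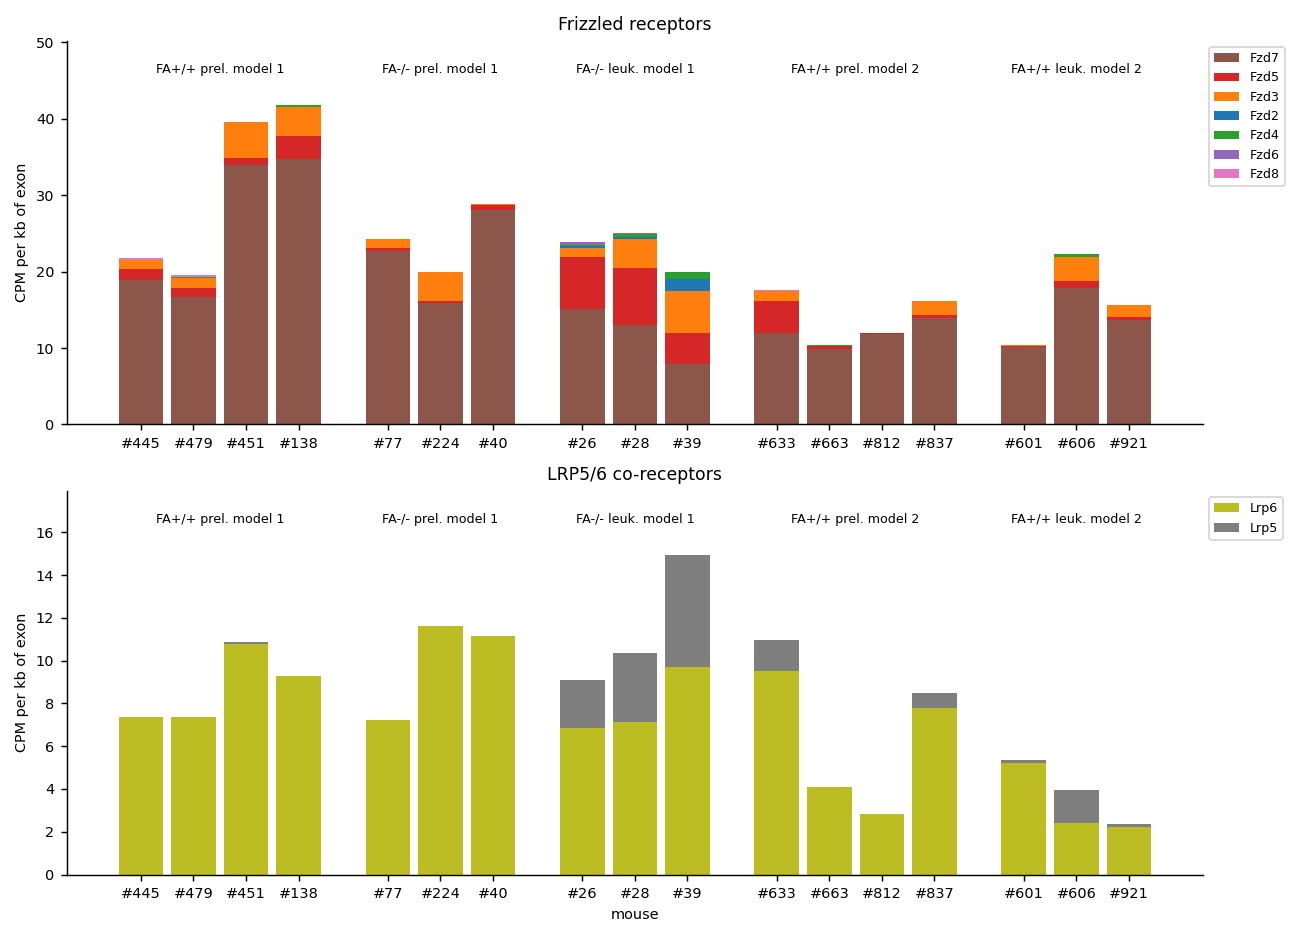
Stacked levels in CPM per kb of exon of the Frizzled genes (top) and of Lrp5 and Lrp6 (bottom) in each of the 17 libraries, marked by mouse number and grouped by genotype, stage and model. In the 3 leukaemic libraries of model 1 Fzd7 made up 39.9 to 62.9% of the Frizzled sum and Lrp5 24.3 to 35.0% of the co-receptor sum.

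The make-up of the Frizzled pool was described per kb of exon. The sum over the Frizzled members was 24.3 ± 4.49 CPM per kb (n = 3) in TgSpi1FA-/- preleukaemic and 23.0 ± 2.66 CPM per kb (n = 3) in leukaemic blasts of model 1, with overlapping ranges. Fzd7 made up 80.1 to 97.1% of it in the former and 39.9 to 62.9% in the latter. Fzd5 made up 0.999 to 2.5% and 20.1 to 29.7%. In TgSpi1FA+/+ preleukaemic blasts of model 1, Fzd7 made up 82.9 to 86.7% and Fzd5 2.15 to 7.24%. Leukaemic mice differed among themselves: leukemic_39 had the lowest Fzd7 and Fzd5 of its group and the highest Lrp5, Fzd2, Fzd3 and Fzd4, and Fzd2 reached 7.74% of its Frizzled sum against 1.22% and 1.39% in leukemic_26 and leukemic_28. In model 2, Fzd7 made up 68.2 to 99.1% in preleukaemic and 79.8 to 97.0% in leukaemic libraries.

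A further deposited table held other counts for the 3 leukaemic and the 4 TgSpi1FA+/+ preleukaemic mice of model 1, with 35497594 to 171572736 counts per library. It comes from the same mice and is no independent replicate. Lrp5 was at 16.9, 26.1 and 27.3 CPM in leukemic_26, leukemic_28 and leukemic_39 and at 0.0372 to 0.545 CPM in the preleukaemic mice, again without overlap. Fzd2 was at 0.192, 0.483 and 1.01 CPM in the leukaemic mice and had 1 count over the 4 preleukaemic libraries. Fzd4 was at 1.2, 3.61 and 3.22 CPM in leukemic_26, leukemic_28 and leukemic_39, above the highest preleukaemic value of 0.651 CPM, whereas in the first table these groups overlapped. Fzd5 was at 57.4 and 70.7 CPM in leukemic_26 and leukemic_28 but at 8.06 CPM in leukemic_39, inside the preleukaemic range of 5.54 to 11.8 CPM. Fzd7 was at 73.2, 56.9 and 27.5 CPM in leukemic_26, leukemic_28 and leukemic_39 and at 49.6 to 161 CPM in the preleukaemic mice, so its groups overlapped there and not in the first table. Fzd8 was at 0 in preleukemic_445 and preleukemic_479, which had 51 and 56 counts in the first table. Fzd3 in preleukemic_479 was at 2.27 CPM against 17.2 CPM in the first table. Fzd1, a gene without a row in the first table, had 1 count in leukemic_26, 3 counts in preleukemic_138 and none in the other 5 libraries, and Fzd6 was at 1.04, 1.35 and 0.0546 CPM in leukemic_26, leukemic_28 and leukemic_39.

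**Figure D4:**
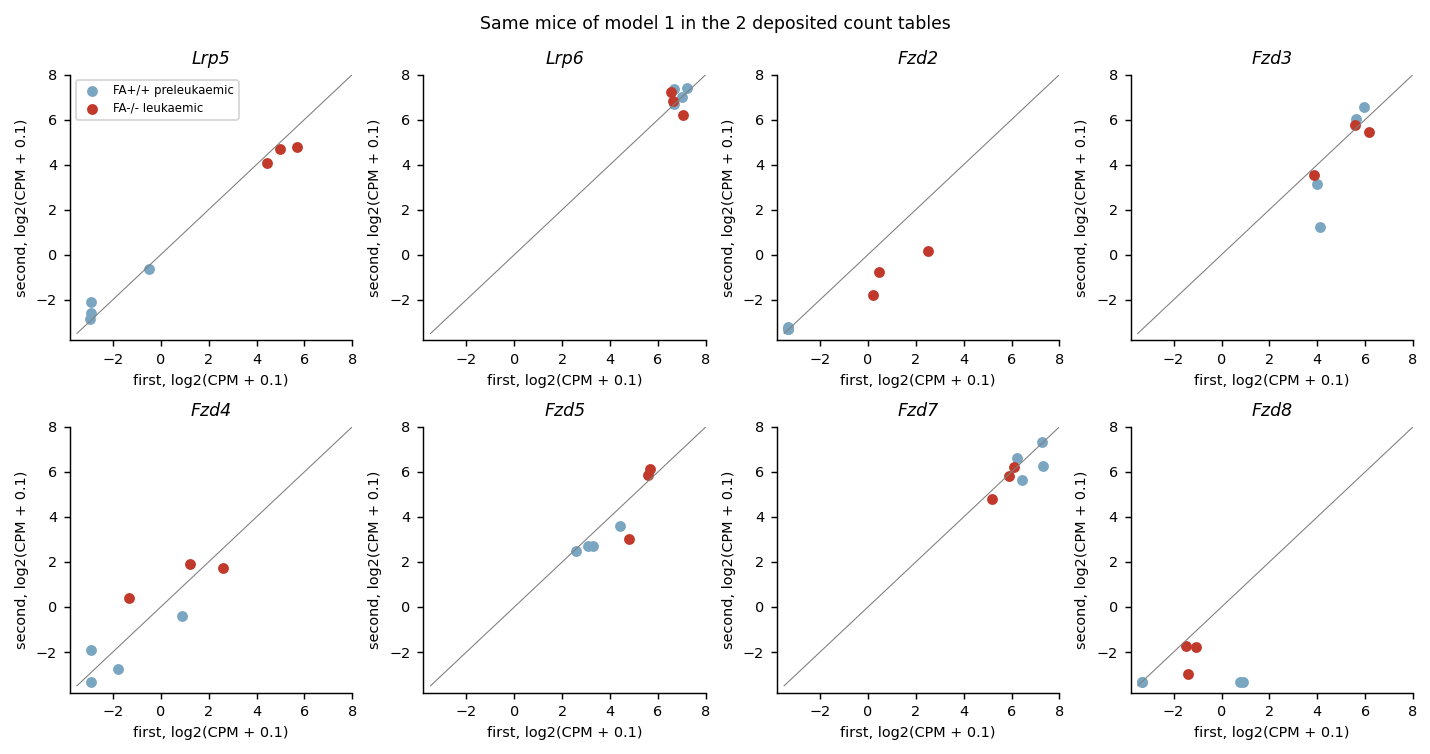
Level of 8 members in the first (horizontal) and the further (vertical) count table, as log2(CPM + 0.1), for 7 mice of model 1; the line marks equal values. Lrp5 keeps the leukaemic (red) and preleukaemic (blue) mice apart in both tables, while for Fzd5 the mouse leukemic_39 falls to 8.06 CPM in the further table.

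Other genes of the pathway were read from lists by role, compiled for this family with earlier results known. In the comparison of TgSpi1FA-/- leukaemic with preleukaemic blasts, 46 of 102 listed WNT genes were tested, of which 4 were called higher and 2 lower, with a median log2 fold change of 0.05 against 0.00 over all genes. WNT ligands were scarce: 8 of 19 had a row in model 1 and 1, Wnt10b, passed the filter, at 0.48 ± 0.391 CPM in leukaemic and 0.227 ± 0.141 CPM in preleukaemic TgSpi1FA-/- blasts (adjusted p = 0.401, edgeR). Wnt2 reached the highest level of a ligand, 84 and 44 counts in leukemic_28 and leukemic_39, with 1 count in leukemic_26 and at most 7 counts in any other library of model 1. None of the 7 ligand secretion genes tested was called. Wls, the carrier of WNT proteins to the cell surface, was at 0.411, 21.5 and 3.32 CPM in leukemic_26, leukemic_28 and leukemic_39 (adjusted p = 0.0802, edgeR).

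The 6 calls among 46 genes were 13.0% of them, near the 13.3% of all genes. Of 12 regulators of receptors at the surface tested, 3 were called higher and 1 lower. Adgra2 (GPR124), a co-activator of WNT7 signalling with Frizzleds, was at 0 in the TgSpi1FA-/- preleukaemic mice and at 15.3 ± 8.35 CPM in leukaemic blasts, at least 162-fold higher. Lgr4, a receptor of R-spondins that stabilises Frizzleds and LRP6, rose from 4.65 ± 4.3 to 40.5 ± 22.5 CPM (log2 fold change 3.12 ± 0.75, SE, adjusted p = 0.0295, edgeR). Rnf43, a ubiquitin ligase that removes Frizzleds from the membrane, fell from 32.7 ± 14.3 to 8.41 ± 1.47 CPM (log2 fold change -1.96 ± 0.47, SE, adjusted p = 0.0295, edgeR). Kremen1, a receptor of DKK proteins that takes LRP6 into the cell, rose from 1.18 ± 0.287 to 10.2 ± 4.89 CPM (adjusted p = 0.0291, edgeR). Znrf3, the relative of Rnf43, was at 21.2 ± 1.07 and 20.5 ± 4.77 CPM (adjusted p = 0.915, edgeR).

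Of 3 other WNT receptors and relatives tested (Fzd9, Ryk and Smo) none was called, and Fzd10 was not analysed here in the first tables. Fzd9 was at 0.591 ± 0.569 CPM in preleukaemic and 1.76 ± 0.371 CPM in leukaemic TgSpi1FA-/- blasts. Smo, the Hedgehog transducer with a Frizzled-like fold, was at 20.6 ± 19.1 and 67.7 ± 8.34 CPM. Of the 17 proximal transducers tested, among them Dishevelled, Axin and beta-catenin, 1 was called: Daam1, a formin that binds Dishevelled, fell from 247 ± 53.2 to 102 ± 21.3 CPM (adjusted p = 0.00986, edgeR). Ctnnb1, which encodes beta-catenin, was at 522 ± 68.1 and 718 ± 17.3 CPM (adjusted p = 0.107, edgeR). Of 4 feedback and target genes tested, Tcf7 rose from 0.117 ± 0.124 to 36.8 ± 32.8 CPM (log2 fold change 8.26 ± 1.64, SE, adjusted p = 0.0174, edgeR), with 2.99, 68.4 and 38.96 CPM in leukemic_26, leukemic_28 and leukemic_39. Axin2, a commonly used target of canonical signalling, was at 0 in all preleukaemic libraries of model 1 and reached at most 0.46 CPM in a leukaemic one. Of 2 secreted antagonists tested, none was called, and Sfrp4 was at 128 ± 110.3 and 7.53 ± 8.79 CPM (adjusted p = 0.0916, edgeR). In the LDL receptor family beyond Lrp5 and Lrp6, 7 genes were tested: Lrp10 fell from 213 ± 37.8 to 80.1 ± 18.4 CPM (adjusted p = 0.00656, edgeR) and Ldlrad3 rose from 0.148 ± 0.203 to 3.87 ± 0.406 CPM (adjusted p = 0.0394, edgeR). Without leukemic_39, Adgra2, Daam1, Tcf7 and Lrp10 were called and Kremen1, Lgr4, Rnf43 and Ldlrad3 were not, with adjusted p from 0.0736 to 0.0749 in edgeR. Over all genes, calls fell from 1782 of 13393 to 711 of 13778 when that library was left out. Neither in the comparison of genotypes nor in model 2 was any of these listed genes called. Over all genes, edgeR called 1 of 13393 by genotype and 0 of 12970 in model 2, so nothing is read from this.

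**Figure D5:**
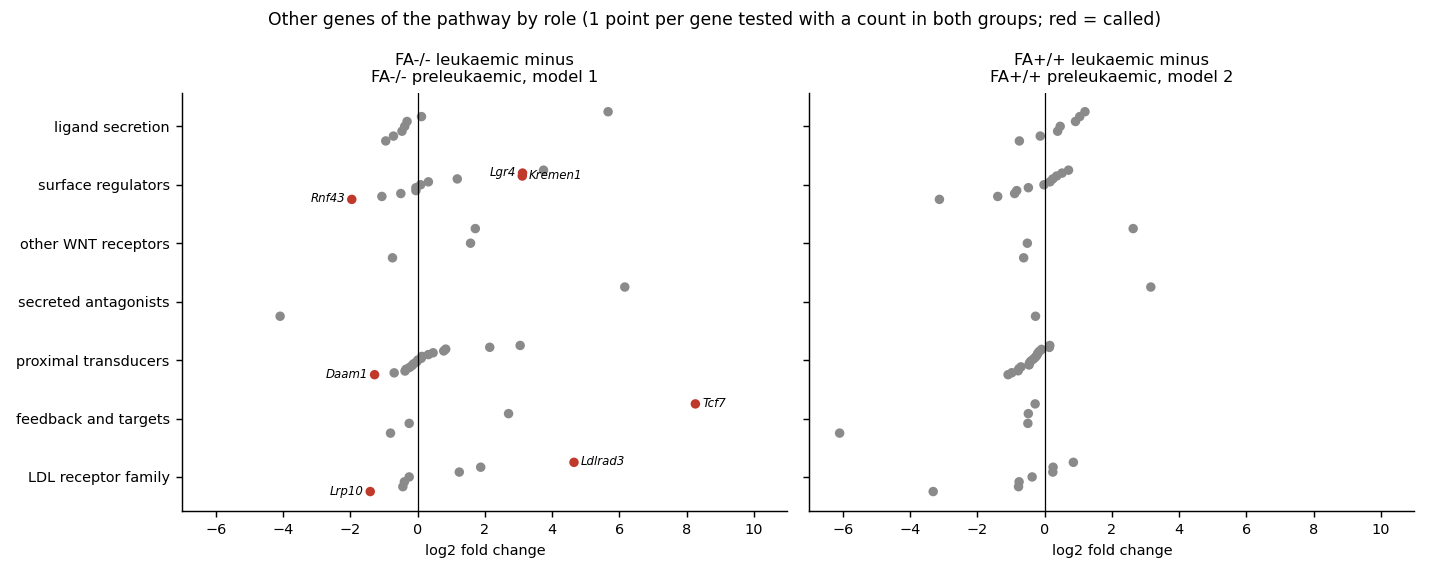
edgeR log2 fold change of other pathway genes by role in the comparison of stages in model 1 (left) and model 2 (right), 1 point per gene tested with a count in both groups, in red and with its name where called; Adgra2, with no count in 1 group of model 1, is not drawn. The called genes of model 1 run from Rnf43 at -1.96 to Tcf7 at 8.26. In model 2 edgeR called 0 of all 12970 genes tested, so none could be red there.

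Genes next to the members were also read, taking the 5 nearest protein-coding genes on either side. Of 100 such neighbours, 64 were tested in model 1 and 8 (12.5%) were called in the comparison of TgSpi1FA-/- leukaemic with preleukaemic blasts, against 13.3% of all genes. Both immediate neighbours of Fzd5 were among them. Ccnyl1, at a distance of 4.9 kb, rose from 2.8 ± 1.31 to 10.5 ± 1.84 CPM (adjusted p = 0.0332, edgeR), and Plekhm3, at 48.2 kb, rose from 0.86 ± 0.755 to 12.6 ± 5.21 CPM (adjusted p = 0.0254, edgeR). The other 3 tested neighbours of Fzd5 had log2 fold changes from -0.30 to 0.34. Near Fzd2, the megakaryocyte integrin gene Itga2b, 134 kb away, rose from 19.5 ± 3.03 to 180 ± 78.0 CPM (adjusted p = 0.00472, edgeR) and Fam171a2 rose from 0.0761 ± 0.0681 to 1.11 ± 0.562 CPM (adjusted p = 0.0455, edgeR). Near Lrp5, Mrpl21 rose from 47.7 ± 0.655 to 82.5 ± 19.2 CPM (adjusted p = 0.0205, edgeR) and 1810055G02Rik from 28.2 ± 4.76 to 46.7 ± 5.49 CPM (adjusted p = 0.0287, edgeR). The 2 called neighbours that fell were Crebl2 near Lrp6, from 12.3 ± 1.67 to 4.55 ± 0.52 CPM (adjusted p = 0.0148, edgeR), and Slc25a32 near Fzd6, from 74.7 ± 1.71 to 45.3 ± 7.4 CPM (adjusted p = 0.04, edgeR). Without leukemic_39, Mrpl21, Crebl2 and Itga2b were called and the other 5 were not, while calls over all genes fell from 1782 to 711. The 5 tested neighbours of Fzd4 lay between -0.05 and 0.73 and none was called.

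The genes whose log2 CPM followed a member most closely over the 10 libraries of model 1 are given as a description, since these libraries fall into 3 groups and share their scaling. They were Bloc1s2-ps for Lrp5 (Pearson r = 0.987, Spearman coefficient = 0.939), Nek6 for Fzd5 (r = 0.983, Spearman 0.976), Dipk1b for Fzd2 (r = 0.988, Spearman 0.988), Acvr2b for Fzd4 (r = 0.986, Spearman 0.939), Snx20 for Fzd7 (r = 0.973, Spearman 0.939), Usp54 for Lrp6 (r = 0.970, Spearman 0.879) and Fbxo16 for Fzd3 (r = 0.966, Spearman 0.891). Among the members themselves, Lrp5 and Fzd2 were the most alike (r = 0.929, 10 libraries), and Fzd2 and Fzd7 the most opposed (r = -0.76).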

How the data were processed

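Gene counts of 17 erythroid blast libraries, 1 per mouse, were used as the authors deposited them: raw read counts per Ensembl gene, not normalised. The submitters' processing notes name bcl2fastq 2.17.1.14, STAR 2.5.3a and HTSeq 0.6.1p1 with mm10/GRCm38. The annotation release and strand setting were not given in the sources used here. A further table of counts for 7 mice of model 1 was described only, and a copy of the model 2 table was not used.

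Each model was fitted separately in edgeR 4.0.16 (R 4.3.3) with filterByExpr, TMM scaling, glmQLFit and glmQLFTest. Genes were called at an adjusted p under 0.05 (Benjamini-Hochberg over all genes tested) and a fold change of at least 1.5. CPM refer to TMM-scaled libraries, and log2 CPM used a prior count of 2. Exact permutation tests were two-sided (scipy 1.17.1). Positions and exon lengths came from GENCODE M21, which held 99.804% of the identifiers of model 1, and promoters from RefSeq (GRCm38.p6). The scripts were tested on simulated data. Reads shared between paralogues could be counted for neither: the longest stretch in common was 47 bases (Fzd1 with Fzd2 or Fzd7).

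Alternatives were DESeq2 1.42.0 (Wald test), its size factors in edgeR, other filters, the adjusted p alone, only the compared groups, preleukemic_445 and preleukemic_479 summed, and leaving out each mouse. Genes named are all members, Fzd9, Fzd10, Smo, the highest ligands, up to 4 called genes with the largest change per list, the nearest genes by correlation and called neighbours. Wls, Znrf3, Ctnnb1, Axin2, Ryk, Sfrp4 and the single markers Kdr, Tek, Pecam1, Vwf, Cdh5, Col1a2, Thy1, Itga2b, Pf4, Tfrc, Hbb-bt and Klf1 were named after their values were seen. The members and lists were chosen with earlier results of these data known.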

Additional observations from a re-analysis of the deposited data

Results flagged for a closer look

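3 single mice stood apart from the others of their group of 4, by the gap to the nearest mouse as a share of the whole range. They were preleukemic_451 for Lrp5 in TgSpi1FA+/+ preleukaemic blasts of model 1 (0.994, 19 counts against 1 in each other mouse), preleukemic_138 for Fzd4 in the same group (0.906) and preleukemic_633 for Fzd5 in preleukaemic blasts of model 2 (0.902). 13 groups were examined, and the rule takes about 1 such mouse in 20 groups to arise by chance. Whether that rate holds for levels of a few counts, or for groups that share mice, was not tested. Nothing is read from the number flagged. The fitted log2 fold changes of Fzd5 by stage had opposite signs in the 2 models (3.73 in model 1 and -1.25 ± 1.31, SE, in model 2). All 3 leukaemic mice of model 1 lay above the preleukaemic mean and all 3 of model 2 below theirs. In model 2 that mean rests on preleukemic_633, without which the fold change was 0.77. No change by stage is therefore read for Fzd5 in model 2, and the difference between models was not tested.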

How the results depend on the processing

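Levels of the members moved by less than the SD between mice under DESeq2's size factors, under the plain library total and with preleukemic_445 and preleukemic_479 as 1 replicate. In the comparison of stages in model 1, DESeq2 called 3100 genes in place of 1782, and leaving out a mouse gave 414 to 2319 genes and 1 to 4 members. In the comparison of genotypes, DESeq2 called 250 genes and 1 member (Fzd5, -1.83), no filter gave 4 genes, and leaving out a mouse gave 1 to 16 genes and 0 members. In model 2, DESeq2 called 470 genes, and leaving out a mouse gave 0 to 1. Signs turned for Lrp5 by genotype without preleukemic_451 (0.72, with a range of -3.23 to 0.72), and in model 2 for Lrp5 without preleukemic_663, preleukemic_812 or leukemic_606 (-0.28, -0.23 and -2.12, with a range up to 1.30), for Fzd5 without preleukemic_633 (0.77, with a range from -2.06) and for Fzd7 without leukemic_606 (-0.0011, with a range up to 0.41). Fzd3 in model 1 by stage was 2.51 without preleukemic_224. The causes were not tested. With 3 or 4 mice per group and members at a few counts, folds of Fzd2, Fzd4 and Fzd8 are limited by depth. No paired analysis was possible because the groups share no mouse or replicate number.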
